A study of Arabidopsis thaliana with 48 samples.

Results

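Aminoacyl-tRNA synthetases are the enzymes that join each amino acid to its own tRNA before translation. Uncharged tRNA activates the kinase GCN2, which then phosphorylates the initiation factor eIF2α and so lowers translation initiation. The herbicide chlorsulfuron (chlorosufuron in the labels) inhibits acetolactate synthase, an early enzyme in the synthesis of leucine, isoleucine and valine, so among the enzymes described here those for leucine and isoleucine use amino acids whose synthesis it blocks. The group was given as 8 named loci, and a locus was used where the array's probe-to-gene table gave it a probe set of its own, a rule that used no measured value. This held for 6 of 8 genes, of 13350 genes with such a probe set in all. They were AT1G09620 for leucine, AT4G10320 for isoleucine and AT3G56300 for cysteine, which are class I synthetases, and AT5G27470 for serine, AT3G62120 for proline and AT5G26830 for threonine, which are class II synthetases. AT3G11710 for lysine and AT4G31180 for aspartate were not analysed here.

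RNA came from the aerial part of Arabidopsis thaliana seedlings of the line Landsberg erecta, 10 days old, either wild type or gcn2, a mutant of GCN2 whose allele the labels do not name. At 2 h after light on, seedlings were submerged for 1 min in chlorsulfuron, called herbicide below, or in solvent alone, called mock, and incubated for 2 h. The labels state 0.5 mM herbicide and also a 5 mM stock diluted 10000-fold, which do not give the same dose. Each of the 4 groups of genotype and treatment had 3 replicates, and each replicate gave 1 array of total RNA and 3 from a gradient of 30% to 50% sucrose. The 4 upper gradient fractions were pooled for non-polysomal RNA, the 4 middle ones for small polysomes and the 4 lowest for large polysomes. Ribosome-bound mRNA sinks further the more ribosomes it carries, so an mRNA with many ribosomes is found among the large polysomes.

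Over the 48 Affymetrix ATH1 arrays, medians of the log2 values ran from 6.145 to 6.311, except for 5.668 in the wild-type mock large polysomes of replicate 1, and lower quartiles from 3.44 to 3.83. Replicates of a group correlated across probe sets between 0.929 and 0.9962. The 3 wild-type mock large polysome arrays also stood apart from each other, with SDs from their group mean of 0.42, 0.36 and 0.58 against at most 0.29 on the other arrays, and they enter every gradient result on wild-type mock. Since the other arrays had like distributions, a value is relative to the other RNAs on the array, and fewer cells of a type and less RNA per cell cannot be told apart. For the 2626 probe sets called for herbicide in total RNA of gcn2, each counted positive in its called direction, the wild-type gradients of replicate 3 had mean herbicide minus mock values of -0.30 in non-polysomal RNA, -0.39 in small and -0.29 in large polysomes, against 0.30 to 0.44 in replicates 1 and 2. They thus ran against their treatment labels, and tests that use the wild-type gradients are given with and without them. Of the leaf markers listed, 1 of 8 had a probe set, RCA (Rubisco activase), at 12.96 to 13.45 in total RNA. The root markers EXPA7, EXPA18 and AT5G17820 stayed at or below 3.62, while PYK10, a root-enriched glucosidase, was at 9.98 to 10.99. For GCN2 and for CSR1, which encodes acetolactate synthase, the annotation gave no single-gene probe set, so neither was analysed here and the gcn2 labels were not checked on the gene itself.

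In total RNA, none of the 6 synthetase genes passed the test for the herbicide in either genotype, and none passed for a difference between the genotypes. The limma fits used Benjamini-Hochberg adjustment over all 22746 tested probe sets. They called 6.73% of these in wild type and 11.5% in gcn2 after herbicide, so 0 of 6 is near the background. In these fits, which have no replicate block, 0 of 6 had an unadjusted p under 0.05 in any comparison of total RNA. Over all probe sets, 4728 had one for the herbicide in wild type and 5703 in gcn2. For the difference of the responses it was 2682, and between the genotypes 1646 in mock and 3843 after herbicide. With a replicate block, AT5G26830 had an unadjusted p of 0.036 for the herbicide in gcn2 (adjusted p = 0.12). The estimated log2 changes of the 6 lay between -0.16 and 0.12 in wild type and between -0.24 and 0.11 in gcn2. Their 95% confidence intervals ran in all from -0.44 to 0.55 in wild type and from -0.53 to 0.44 in gcn2, and for AT5G27470, the most precise, from -0.35 to 0.15 and from -0.31 to 0.18.

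The leucine and isoleucine enzymes stand first, since the herbicide blocks the making of their amino acids. AT1G09620 (leucine) had total RNA values of 8.53, 9.33 and 8.89 in wild-type mock, 8.96, 9.34 and 8.79 in wild-type herbicide, 8.61, 8.98 and 8.91 in gcn2 mock and 8.55, 9.06 and 8.92 in gcn2 herbicide, each for replicates 1, 2 and 3. The groups overlapped throughout, and replicate 2 was the highest of its group in each of the 4 groups. Its log2 change with herbicide was 0.12 ± 0.20 (SE, n = 3 per group, adjusted p = 0.82) in wild type and 0.01 ± 0.20 (adjusted p = 0.98) in gcn2, with the largest standard error of the 6 genes.

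AT4G10320 (isoleucine) had 9.59, 9.69 and 9.65 in wild-type mock, 9.39, 9.53 and 9.53 in wild-type herbicide, 9.45, 9.56 and 9.73 in gcn2 mock and 9.24, 9.61 and 9.62 in gcn2 herbicide. All 3 wild-type herbicide arrays lay below all 3 mock arrays, while the gcn2 groups overlapped. The wild-type change was -0.16 ± 0.13 (adjusted p = 0.56). It was the only one of the 6 genes with groups that did not overlap in this comparison, against 24.4% of all probe sets.

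AT3G56300 (cysteine) had the dimmest signal, below the median of every total RNA array and above every lower quartile. Its values were 5.40, 5.00 and 5.08 in wild-type mock, 5.10, 4.96 and 5.21 in wild-type herbicide, 5.46, 5.48 and 5.27 in gcn2 mock and 5.17, 5.26 and 5.19 in gcn2 herbicide. The gcn2 herbicide arrays all lay below the gcn2 mock arrays, with a change of -0.20 ± 0.13 (adjusted p = 0.39). Counting both directions, 29.5% of all probe sets did not overlap in this comparison.

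Among the class II enzymes, AT5G27470 (serine) had the smallest standard error. Its values were 11.13, 11.30 and 11.16 in wild-type mock, 11.01, 11.19 and 11.10 in wild-type herbicide, 11.07, 11.08 and 11.03 in gcn2 mock and 10.87, 11.06 and 11.05 in gcn2 herbicide. In mock, every gcn2 array lay below every wild-type array, with a difference of -0.14 ± 0.12 (gcn2 minus wild type, adjusted p = 0.91). Counting both directions, 11.2% of probe sets did not overlap there. AT3G62120 (proline) had 9.26, 9.45 and 9.35 in wild-type mock, 9.17, 9.17 and 9.36 in wild-type herbicide, 9.32, 9.19 and 9.02 in gcn2 mock and 9.32, 9.39 and 9.15 in gcn2 herbicide. All of its groups overlapped, and its changes were -0.12 ± 0.13 (adjusted p = 0.67) in wild type and 0.11 ± 0.13 (adjusted p = 0.66) in gcn2.

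AT5G26830 (threonine) had the change farthest from 0, in gcn2. Its values were 10.64, 10.84 and 10.70 in wild-type mock, 10.67, 10.81 and 10.59 in wild-type herbicide, 10.66, 10.93 and 10.64 in gcn2 mock and 10.30, 10.67 and 10.55 in gcn2 herbicide. The gcn2 herbicide group mean of 10.50 ± 0.19 (SD, n = 3) was the lowest of the 4, the groups overlapped, and the change of -0.24 ± 0.14 did not pass (adjusted p = 0.30). Within same-numbered pairs the herbicide minus mock values were -0.36, -0.26 and -0.09, and in the fit with a replicate block this change had an unadjusted p of 0.036 and still did not pass (adjusted p = 0.12). Pairs were also below 0 in 3 of 3 for AT3G56300 in gcn2 and, in wild type, for AT4G10320 and for AT5G27470 (-0.12, -0.11 and -0.06), and none passed under the block. All remaining sets of pairs lay on both sides of 0. The share of all probe sets with such runs of sign is not given here. Medians over all probe sets were also below 0, at -0.02 in wild type and -0.06 in gcn2. Replicate 2 was again the highest of its group in all 4 groups for AT5G26830, as for AT1G09620 and AT5G27470, which was so for 4.3% of all probe sets.

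**Figure D1:**
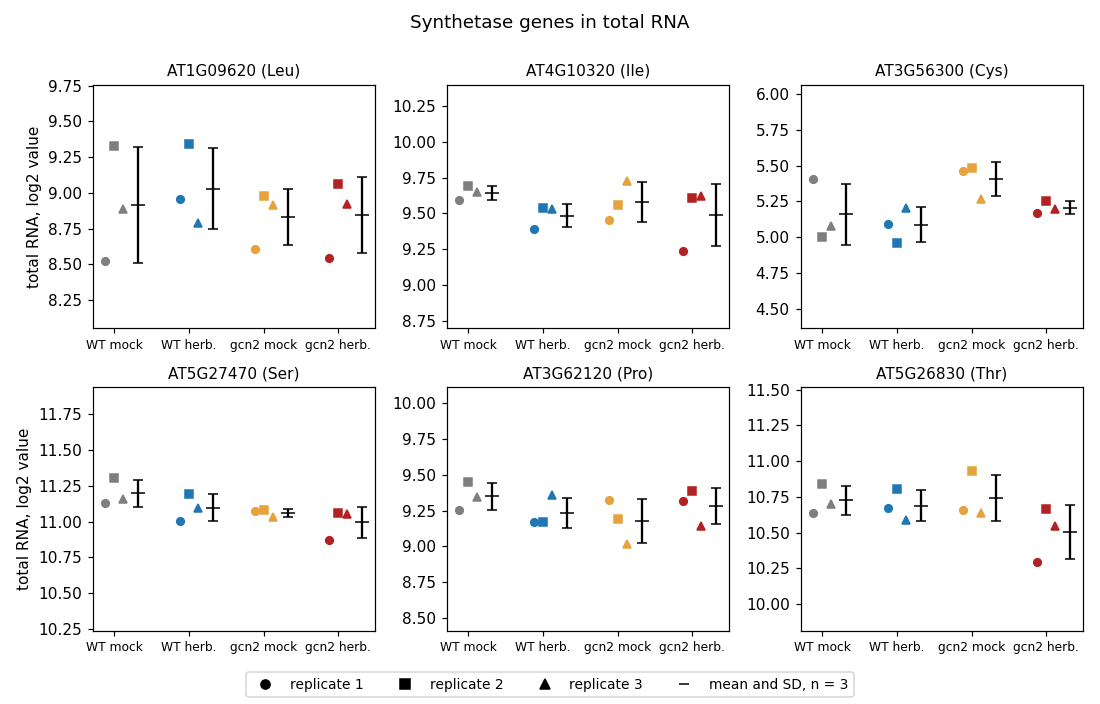
Log2 values in total RNA of the 6 synthetase genes (vertical axis, the same span of 1.7 log2 units in each panel) in the 4 groups, with 1 symbol per replicate and the mean with its SD beside it (n = 3). Group means span most for AT3G56300, from 5.09 to 5.41, and for AT1G09620 the replicates of wild-type mock reach from 8.53 to 9.33.

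Tested directly, the herbicide response did not pass as different between the genotypes for any of the 6 genes. The differences (gcn2 response minus wild-type response) lay between -0.20 and 0.22 on the log2 scale, with adjusted p from 0.72 to 0.97 and 1.53% of all probe sets called. AT3G62120 had the highest, 0.22 ± 0.18, and AT5G26830 the lowest, -0.20 ± 0.19. Between the genotypes, differences ran from -0.17 to 0.24 in mock (0.136% of probe sets called) and from -0.19 to 0.12 after herbicide (4.49% called). The highest, 0.24 ± 0.13 for AT3G56300 in mock, had adjusted p = 0.76.

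Of 38 other synthetase genes listed for the remaining amino acids, for second copies and for organelles, 13 had a probe set of their own. In total RNA, 0 of 13 passed for the herbicide in wild type (median -0.08, against -0.02 over all probe sets). In gcn2, 1 rose and 1 fell (median 0.00, against -0.06), where 6.67% of all probe sets rose and 4.87% fell. AT5G26710, for glutamate, rose by 0.47 ± 0.12 (adjusted p = 0.018), and AT4G26870, a second aspartate enzyme, fell by 0.40 ± 0.12 (adjusted p = 0.045). The call of AT5G26710 was lost without gcn2 mock replicate 3, gcn2 herbicide replicate 1 or gcn2 herbicide replicate 3 (up to adjusted p = 0.078). For AT4G26870 it was lost in 11 of 19 alternatives, namely without any single array of gcn2, without replicates 2 or 3 of wild-type mock or wild-type herbicide, and with only the groups compared in the fit (up to adjusted p = 0.16 over its alternatives). The 6 members had medians of -0.09 and -0.08 in the same comparisons.

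Polysomal RNA was taken as the average of a gradient's small and large polysome values. Here 0 of 6 genes passed for the herbicide, with 0% of probe sets called in wild type by limma (874 had an unadjusted p under 0.05) and 4.77% in gcn2. Log2 changes lay between -0.13 and 0.17 in wild type and between -0.25 and 0.06 in gcn2. The wild-type range depended on the scaling. With each array centred on its median it was -0.24 to 0.06, with 1 of 6 above 0 instead of 3. The median over all probe sets then moved from 0.04 to -0.07. In gcn2 the centred range was -0.27 to 0.04. The lowest in gcn2 belonged to AT3G62120 (-0.25 ± 0.19, adjusted p = 0.59). Its polysomal values were 9.23, 9.30 and 8.69 in gcn2 mock and 8.83, 9.02 and 8.63 in gcn2 herbicide, and 8.83, 9.03 and 8.98 in wild-type mock and 9.11, 9.37 and 8.88 in wild-type herbicide, so both pairs of groups overlapped. The difference of its responses was -0.42 ± 0.27 (adjusted p = 0.71), with 0.409% of probe sets called. Without the wild-type gradients of replicate 3, and without centring, wild-type changes of the 6 lay between -0.10 and 0.31 and 0 of 6 passed, with 0.901% of probe sets called. The differences of the responses then lay between -0.56 and 0.04, with a lowest adjusted p of 0.85.

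Between the genotypes, polysomal RNA differed by -0.17 to 0.17 in mock and by -0.29 to 0.25 after herbicide, and 0 of 6 genes passed in either (0.0659% and 1.93% of probe sets called). AT3G56300 stood at the upper end after herbicide, with 0.25 ± 0.19 (adjusted p = 0.70), and AT3G62120 at the lower end, -0.29 ± 0.19 (adjusted p = 0.61). With each array centred on its median, the mock differences ran from -0.26 to 0.07. Without the wild-type gradients of replicate 3, and without centring, the limits were -0.12 and 0.34 in mock and -0.41 and 0.39 after herbicide. The lowest adjusted p of the 6 was then 0.92 in mock and 0.43 after herbicide.

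Polysome loading, the difference between the polysomal and non-polysomal values of a gradient, measures how much of an mRNA sits on ribosomes relative to the other RNAs. Its change with herbicide passed for 0 of 6 genes in wild type (0% of probe sets called by limma, 1188 with an unadjusted p under 0.05) and for 0 of 6 in gcn2 (0.0484% called). The wild-type estimates lay between 0.02 and 0.29 and the gcn2 estimates between -0.37 and 0.12, where the medians over all probe sets were 0.06 and -0.02. The 95% intervals of the wild-type values run in all from -0.46 to 0.79 and each includes 0. Their sign depended on the scaling: with each array centred on its median, the median over all probe sets moved to -0.10 and the 6 estimates ran from -0.15 to 0.13, with 3 above 0. Without the wild-type gradients of replicate 3 they were 0.10 to 0.53, the highest for AT4G10320 (0.53 ± 0.24, unadjusted p = 0.045, adjusted p = 0.24), and 0 of 6 passed. The share of all probe sets called in that setting is not given here, so this count has no background beside it.

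The loading of AT3G62120, the proline enzyme, had the estimates farthest from 0 among the 6 genes for the herbicide in gcn2, for the difference of the responses and between genotypes after herbicide. Its loading was 0.80, 1.09 and 1.00 in wild-type mock, 1.23, 1.41 and 0.74 in wild-type herbicide, 1.09, 1.05 and 0.91 in gcn2 mock and 0.41, 0.62 and 0.91 in gcn2 herbicide. Replicates 1 and 2 of gcn2 herbicide lay below all gcn2 mock gradients and replicate 3 overlapped with them. The change in gcn2 was -0.37 ± 0.22 (adjusted p = 0.72) and the difference of the responses -0.53 ± 0.31 (adjusted p = 0.84, 0% of probe sets called, 1419 with an unadjusted p under 0.05). Over the 6 genes the differences of the responses lay between -0.53 and -0.03 (median -0.21, against -0.08 over all probe sets), and between -0.37 and 0.13 with each array centred, where 2 were above 0. Without the wild-type gradients of replicate 3, and without centring, they lay between -0.74 and -0.11. They were -0.74 ± 0.30 for AT3G62120 (unadjusted p = 0.023, adjusted p = 0.24) and -0.69 ± 0.30 for AT5G26830 (unadjusted p = 0.037, adjusted p = 0.28). No adjusted p of the 6 was lower than these. Here too wild-type mock rests on replicates 1 and 2, with the low array median in replicate 1, and the part of array scaling was not tested.

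After herbicide, the loading of AT3G62120 had a gcn2 minus wild-type difference of -0.48 ± 0.22 (unadjusted p = 0.040, adjusted p = 0.38), which did not pass, and 0.141% of probe sets were called. Without the wild-type gradients of replicate 3 the difference was -0.67 ± 0.21 (adjusted p = 0.091), with 3.36% called, and with array weights it was -0.56 and passed (adjusted p = 0.049), with 9.14% called. For AT5G27470 and AT5G26830 all 3 gcn2 herbicide gradients lay below all 3 wild-type herbicide gradients. Counting both directions, 22.2% of probe sets did not overlap there. The loading of AT5G27470 was 1.04, 1.06 and 1.07 in wild type and 0.68, 0.61 and 0.85 in gcn2, a difference of -0.34 ± 0.20 (adjusted p = 0.51). For AT5G26830 it was 0.54, 0.54 and 0.38 against 0.10, 0.06 and 0.08, a difference of -0.41 ± 0.25 (adjusted p = 0.55). With the wild-type gradients of replicate 3 left out these were -0.33 and -0.46 (adjusted p = 0.41 and 0.26). In mock, differences ran from -0.31 to 0.25 and 0 of 6 passed (0.00879% of probe sets called). With each array centred on its median the mock differences ran from -0.44 to 0.12. Without the wild-type gradients of replicate 3, and without centring, they ran from -0.22 to 0.49, with a lowest adjusted p of 0.63. That of AT5G26830 changed from -0.09 to 0.22.

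**Figure D2:**
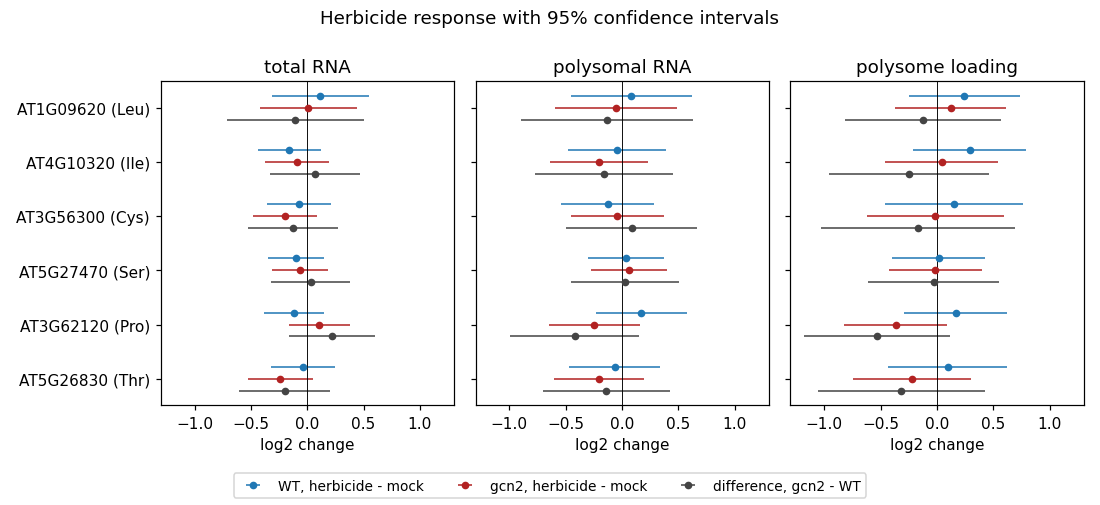
Log2 change with herbicide (horizontal axis) of the 6 synthetase genes in total RNA, polysomal RNA and polysome loading, in wild type, in gcn2 and as the difference of the 2 responses, with 95% confidence intervals from the limma fits (points are estimates from 3 arrays or gradients per group). Every interval, from fits without a replicate block, includes 0, and those for the difference of the loading responses cover in all -1.18 to 0.69.

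Where the synthetase mRNAs sat in the gradient was measured far more precisely than their response. For this, each gradient was centred on its median over all probe sets, so that 0 is the loading of the median probe set, and the mean of the 4 groups was tested over 12 gradients. Loading differed from 0 for 6 of 6 genes, where 50.9% of all probe sets were called. It was higher for 5 genes (25% of probe sets) and lower for 1, AT3G56300 (26% of probe sets). The 6 had a median of 0.40 and the median over all probe sets was 0.00.

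AT3G62120 (proline) and AT5G27470 (serine) were the most heavily loaded. AT3G62120 had a centred loading of 0.94 ± 0.08 (SE, adjusted p = 1.1e-08), from 0.45 to 1.43 with a median of 0.93 over the 12 gradients. AT5G27470 had 0.88 ± 0.06 (adjusted p = 3.0e-09), from 0.53 to 1.09 with a median of 0.94. Both were above 0 in 12 of 12 gradients and above at least 97.4% of all probe sets, and for both genes the small polysome value exceeded the non-polysomal value in all 12 gradients.

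AT1G09620 (leucine) followed with 0.49 ± 0.08 (adjusted p = 3.0e-05), from 0.15 to 0.89 and above 0 in 12 of 12 gradients. AT5G26830 (threonine) had 0.32 ± 0.08 (adjusted p = 0.0029) and AT4G10320 (isoleucine) 0.24 ± 0.08 (adjusted p = 0.013), each above 0 in 11 of 12 gradients. For both the exception was the wild-type mock gradient of replicate 1, with -0.03 for AT5G26830 and -0.26 for AT4G10320. The last call was lost with quantile normalization (0.16, adjusted p = 0.092).

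AT3G56300 (cysteine) went the other way, with a loading of -0.89 ± 0.09 (adjusted p = 2.9e-07), lower than that of all but 4.01% of probe sets and below 0 in 12 of 12 gradients. Its non-polysomal values were 6.60, 6.22 and 6.21 in wild-type mock, 5.79, 6.27 and 6.13 in wild-type herbicide, 5.56, 6.45 and 6.77 in gcn2 mock and 6.37, 5.96 and 6.36 in gcn2 herbicide. In small polysomes they were 5.28, 5.25 and 5.21, then 5.17, 5.12 and 5.42, then 5.49, 5.26 and 5.89, and 5.48, 5.50 and 5.80 in the same order of groups. The non-polysomal value was the highest of the 3 fractions in every gradient. The gap was smallest in gcn2 mock replicate 1, with a centred loading of -0.17, and largest in wild-type mock replicate 1, with -1.39.

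The share of probe sets called for loading also moved with the level of signal. Over 4 equal bins by the mean of the gradient arrays, the share with called higher loading was 3.85% in the lowest bin, 21.9% in the next, which holds AT3G56300, 33.5% in the third, which holds AT1G09620, and 40.7% in the highest, which holds the other 4 genes. The share with called lower loading was 8.35%, 30.3%, 33.7% and 31.4% in the same order. The part of signal strength in the loading of single genes was not tested.

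Within polysomes, 5 of the 6 mRNAs lay toward the large ones. The large minus small polysome value, centred in the same way, was above 0 for AT3G62120 (0.89 ± 0.09), AT5G26830 (0.81 ± 0.09), AT1G09620 (0.78 ± 0.08), AT4G10320 (0.59 ± 0.08) and AT5G27470 (0.43 ± 0.09), with adjusted p from 2.4e-06 to 0.00099 and all 12 gradients above 0 for each. Over all probe sets 44.7% were called and 22.2% were higher, and the median was 0.01, against 0.68 for the 6 genes. AT5G26830, AT1G09620 and AT4G10320 were thus moderate in loading yet shifted to large polysomes, while AT5G27470 was high in loading with the smallest shift of the 5.

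AT3G56300 had -0.17 ± 0.09 for large against small polysomes (adjusted p = 0.15) and did not pass, where 22.5% of probe sets were called lower. Its large polysome values were 4.90, 5.03 and 6.07 in wild-type mock, 4.99, 4.82 and 5.45 in wild-type herbicide, 5.39, 5.14 and 5.55 in gcn2 mock and 5.27, 5.11 and 5.31 in gcn2 herbicide. Wild-type mock replicate 3 was the single gradient above 0, at 0.74. Without that gradient the gene passed as lower (-0.25, adjusted p = 0.0071), and without both wild-type gradients of replicate 3 it did so too (-0.27 ± 0.07, adjusted p = 0.0075), where 47.4% of probe sets were called. The direction of the other 5 genes and their calls held without those gradients in both measures, with loadings from 0.19 to 1.00, and AT3G56300 had a loading of -0.96 ± 0.10.

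**Figure D3:**
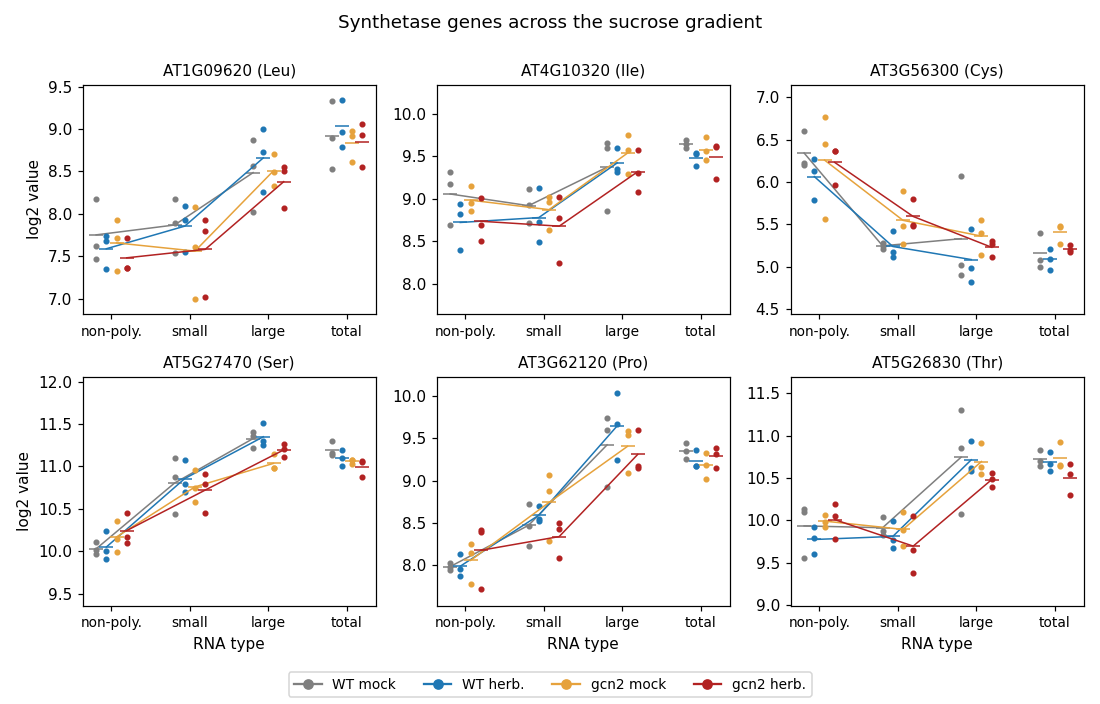
Log2 values of the 6 synthetase genes (vertical axis, the same span of 2.7 log2 units in each panel) in non-polysomal RNA, small polysomes, large polysomes and total RNA, with points for the 3 replicates of each group and dashes for group means, joined across the gradient. For 5 genes the large polysomes lie highest of the 3 fractions in each group mean, and for AT3G56300 the non-polysomal RNA does, with group means from 6.06 to 6.34.

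The order of the RNA types within each gene repeats this. For AT5G27470 group means were 10.03 to 10.24 in non-polysomal RNA, 10.72 to 10.86 in small polysomes and 11.04 to 11.35 in large polysomes, and these ranges did not overlap. AT3G62120 had the same order, with 7.99 to 8.18, 8.34 to 8.74 and 9.31 to 9.65. In AT1G09620, AT4G10320 and AT5G26830 the non-polysomal and small polysome means overlapped. They were 7.48 to 7.75 and 7.56 to 7.87 for AT1G09620, with large polysomes at 8.38 to 8.66. The small polysome value exceeded the non-polysomal one in 8, 6 and 4 of 12 gradients for these 3 genes, while the large polysome value exceeded the small one in 12 of 12 for each.

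In total RNA the group means overlapped with those of large polysomes for 4 of the 5 loaded genes, and for AT1G09620 they lay above, at 8.83 to 9.03. AT5G26830 had group means of 10.50 to 10.74 in total RNA and 10.48 to 10.75 in large polysomes, and AT4G10320 had 9.48 to 9.64 and 9.32 to 9.54. For AT3G56300 total RNA (5.09 to 5.41) lay beside the small (5.24 to 5.59) and large polysomes (5.09 to 5.36) and below non-polysomal RNA.

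Over the 16 group means, which share the scaling of arrays by RNA type, the 15 pairs of genes correlated with a median Pearson r of 0.78, from -0.93 to 0.96. The 5 pairs with AT3G56300 were all negative, from -0.93 with AT5G27470 to -0.58 with AT4G10320, and the highest was AT4G10320 with AT5G26830 (0.96). Of 13507 other probe sets with 1 gene, those most like the mean profile of the 6 over the 16 group means were AT3G05350 (r = 0.985), AT5G42310 (0.983), AT2G40660 (0.982), HCF101 (0.982) and AT2G40290 (0.981). AT2G40290 encodes an α subunit of eIF2. The mean profile mainly followed RNA type, with 0.19 to 0.37 in total RNA and large polysomes and -0.43 to -0.23 in non-polysomal RNA and small polysomes. The likeness is therefore mainly one of RNA type, and a shared response to genotype or herbicide was not tested. Over the 4 group means of total RNA alone, r between members ran from -0.80 to 0.75.

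Other synthetase genes also lay on both sides of the median probe set. Of 13, 9 had a higher and 2 a lower loading by the same test (median 0.54), where 25% of all probe sets were called higher and 26% lower. AT3G02760 (histidine) had 0.90 ± 0.07 and AT5G26710 (glutamate) 0.81 ± 0.07, and the lower ones were AT1G17960, a second threonine enzyme gene, with -1.04 ± 0.13 and AT4G26870 (aspartate) with -0.25 ± 0.07. Toward large polysomes, 7 of 13 were called higher and 0 lower, against 22.2% and 22.5% of all probe sets. Among the 7 were AT5G26710 (0.80 ± 0.07) and AT3G02760 (0.62 ± 0.08).

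For cysteine and for threonine a second gene was measured, and these pairs were set side by side after their values were seen, with no test. The second cysteine enzyme gene AT5G38830 had a loading of 0.66 ± 0.10, above 0 in 11 of 12 gradients, where AT3G56300 had -0.89 ± 0.09 and was above 0 in 0 of 12. For threonine, AT5G26830 had 0.32 ± 0.08 and AT1G17960 -1.04 ± 0.13, above 0 in 1 of 12. In each pair one gene was loaded above and the other below the median probe set. AT3G56300 and AT1G17960, the pair members with the lower loading, had means over the 12 total RNA arrays of 5.22 and 6.06, and their partners AT5G38830 and AT5G26830 had 6.78 and 10.66.

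**Figure D4:**
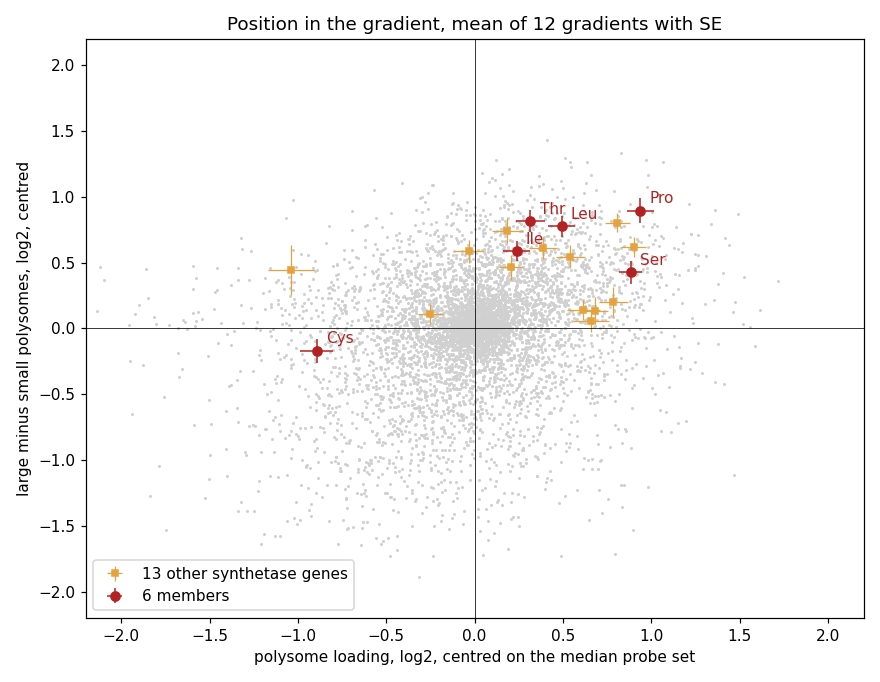
Polysome loading (horizontal axis) against large minus small polysomes (vertical axis), both log2 and centred on the median probe set, as means of 12 gradients with SE, for the 6 synthetase genes, 13 other synthetase genes and 6000 randomly drawn probe sets in grey, those beyond 2.2 on either axis not shown. The other 5 genes lie above 0 on both axes and the cysteine enzyme gene AT3G56300 lies at -0.89 and -0.17.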

How the data were processed

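Seedling RNA was hybridised to 48 Affymetrix ATH1 arrays, in 16 groups of 3. The deposited values are log2 expression per probe set. Per the submitters' processing notes, RMA, affy and MAS5 were used; the sources used here give neither their roles and versions nor whether all arrays were normalized together.

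Of 22810 probe sets, 64 controls were left out and 22746 tested. The probe table and RefSeq names (TAIR10.1) gave 1 gene to 13513, several to 503 and none to 8730. Total RNA, polysomal RNA, polysome loading and its level were fitted with limma 3.58.1 in R 4.3.3 (lmFit, eBayes, 4 group means), with Benjamini-Hochberg adjustment over all tested probe sets and a threshold of 0.05. The fits were tested on simulated data. No label states that replicates are independent cultures. The p-values therefore reflect the spread among these samples alone, which may be technical. Arrays carry no counts, so their number limits the precision.

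Named were all 6 measured members, GCN2 and CSR1, up to 2 rising and 2 falling genes per list and comparison by smallest adjusted p, and the 5 genes most like the members' mean profile. Members and lists were chosen with earlier results of these data known. Same-numbered samples of different groups had residuals that correlated above 0.1 in 18 of 18 pairs in total RNA (mean 0.37). This held in 15 of 18 in polysomal RNA (mean 0.29) and in 4 of 18 for loading. The numbers thus appear to pair the samples in total RNA and largely in polysomal RNA. The main fits have no replicate block, so their standard errors do not use this pairing. For the herbicide in wild-type total RNA the block gave smaller ones for all 6 genes. It gave 0.13 instead of 0.20 for AT1G09620 and 0.10 instead of 0.14 for AT5G26830. Alternatives were a replicate block, each replicate left out, centring, quantile normalization, a filter on dim probe sets, a variance trend, array weights, only the groups compared, and wild-type gradients of replicate 3 left out.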

Additional observations from a re-analysis of the deposited data

How the results depend on the processing

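Each count of synthetase genes past the threshold was recomputed under 18 to 20 alternatives, 330 values in all, of which 329 stayed within 1.5 times of the reported count. The exception was loading in gcn2 against wild type after herbicide, where array weights called 1 of 6 genes, AT3G62120, instead of 0. With each replicate left out in turn, the counts of responses stayed at 0, those of loading level at 6, and those of large against small polysomes between 5 and 6. Under the replicate block the 15 counts of responses were 0 and the levels 6 and 5, so the block changed no call of the 6 genes; over all probe sets it called 3643 instead of 1530 for the herbicide in wild-type total RNA, 4926 instead of 2626 in gcn2, 1051 instead of 347 for their difference, 163 instead of 31 between genotypes in mock and 2561 instead of 1022 after herbicide. Without the wild-type gradients of replicate 3, 205 probe sets instead of 0 were called for the herbicide in wild-type polysomal RNA and 765 instead of 32 for loading between genotypes after herbicide, where array weights called 2078. Of 1980 values of single genes, 1976 stayed on the same side of the threshold. AT4G10320 lost its loading call with quantile normalization (0.16, adjusted p = 0.092), and the cause was not tested. Among uncalled values 122 changed sign, so the signs given with uncalled values are those of the estimates alone. The fit with only the groups compared was not run for the interactions, which use all 4 groups.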

Other observations

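The pathway that reads uncharged tRNA was measured only in part, with 2 of 7 listed genes of GCN2 and eIF2 having a probe set of their own. They were ILA (AT1G64790), the homologue of yeast GCN1, which brings GCN2 to the ribosome in yeast, and AT2G40290, an α subunit of eIF2. They did not pass for herbicide or genotype in total RNA, polysomal RNA or loading (0 of 2 in each). Of all probe sets, 0% to 11.5% were called in these comparisons, so 0 of 2 is near the background. They differed in the gradient. ILA had a centred loading of -0.57 ± 0.10 (limma, adjusted p = 0.0001, below 0 in 11 of 12 gradients) and AT2G40290 one of 0.45 ± 0.08 (adjusted p = 0.00012, above 0 in 12 of 12). Over all probe sets, 25% were called higher and 26% lower in loading. Both genes lay toward large polysomes, ILA with 1.05 ± 0.14 and AT2G40290 with 0.60 ± 0.07, where 22.2% of probe sets were called higher. For ILA the small polysome value exceeded the non-polysomal one in 0 of 12 gradients, and the large polysome value did so in 6 of 12. The low loading of ILA thus lay in the small polysomes.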
